A study of Mus musculus with 8 samples.

Results

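Total RNA, depleted of ribosomal RNA, of AtT-20 cells, a mouse pituitary corticotrope line, was compared between 72 h and 24 h of tamoxifen. Every library came from cells of the genotype ER-Pax7, in which tamoxifen switches on a fusion of the factor Pax7 with an estrogen receptor domain, so both sides of the comparison had the same transgene and the same drug and differed in its duration. The comparison used 4 of the 8 libraries of the series, 2 labelled Tam72h and 2 labelled Tam24h, and was chosen by these titles. Libraries at 0 h, labelled without a tamoxifen treatment, and at 48 h, with n = 2 each, served for the spread and as side values. Whether replicates were separate cultures is not stated, so every error and p-value reflects the spread between libraries, which may be technical, with n = 2 per time. Longer activation of ER-Pax7, longer tamoxifen and longer culture cannot be told apart here, and libraries of vehicle-treated cells were not used here.

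Corticotropes and melanotropes are the pituitary cells that make the hormone precursor Pomc. Corticotropes cut it with the convertase Pcsk1 to give ACTH, and melanotropes cut it further with Pcsk2. Pax7 is a pioneer factor: it binds closed chromatin and opens enhancers of the melanotrope programme, a process in which DNA demethylation and stable enhancer marking follow the first binding. A comparison of a late with an early time asks which RNAs were still moving after the first day and which had come back.

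Between 24 and 72 h, 2 genes rose and 0 passed the test on the lower side among 9619 tested, which were the genes, of 55401, whose signal averaged 1 or more across the 24 h and 72 h libraries. The values are the authors' normalized coverage per gene, called signal here, and differences are of log2(signal + 1), which understates changes of low genes. In the limma fit, with Benjamini-Hochberg adjustment over all tested genes, the 2 called genes were Rgs4 and Mfge8 (0.0208% of tested genes), with 0 on the lower side. At an unadjusted p under 0.05 there were 700 genes on the higher side (7.28%) and 609 on the lower side (6.33%). The libraries of both times did not overlap in 42.4% of tested genes, 20.8% on the higher and 21.6% on the lower side. Against the shared 0 h libraries the same fit called 22 genes at 24 h (0.229%), 53 at 48 h (0.551%) and 194 at 72 h (2.02%). The median size of the difference was 0.07, close to the median standard error of 0.06.

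Rgs4 codes for a regulator of G protein signalling, which speeds the shut-off of G alpha subunits after receptor activation (ENSMUSG00000038530.11, chromosome 1, 169741477 to 169747642, GRCm38, minus strand). Its signal was 1.55 and 1.45 in the 24 h libraries and 3.74 and 3.27 in the 72 h libraries. The groups did not overlap, and the ratio of means was 2.34. The log2 difference was 0.85 (SE 0.06, limma adjusted p = 0.0149). At 0 h Rgs4 stood at 0.920 and 0.853, and at 48 h at 2.42 and 2.46, so each later pair of libraries lay above the pair before it.

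Mfge8 codes for a secreted protein that bridges phosphatidylserine on dying cells to integrins of the engulfing cell (ENSMUSG00000030605.15, chromosome 7, 79133768 to 79149060, GRCm38, minus strand). It had 3.65 and 3.96 at 24 h, then 7.10 and 6.70 at 72 h, a ratio of 1.81. Its log2 difference was 0.72 (SE 0.06, limma adjusted p = 0.0168). The 0 h libraries were at 2.69 and 2.74 and the 48 h libraries at 5.44 and 5.09, again with no overlap between neighbouring times. Neither Rgs4 nor Mfge8 shares exonic bases with another gene. With 1 library left out at a time, Rgs4 kept its call in 3 of 8 fits (adjusted p 0.0238 to 0.107) and Mfge8 in 1 of 8 (0.0233 to 0.176). With only the 4 libraries compared in the fit, both had limma adjusted p = 0.563, and without 24 h replicate 2 the count of called genes was 89 (68 higher, 21 lower) in place of 2.

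The promoters of both called genes are shown because they are the regulatory sequence nearest to the change, as RefSeq gives them for GRCm38.p6 (a window around the start, 5′ to 3′ on the gene's strand). Capitals mark TATAAA, the TATA box. The Rgs4 window spans chr1:169747593-169747892 and the Mfge8 window chr7:79149011-79149310, both on the minus strand.
Rgs4: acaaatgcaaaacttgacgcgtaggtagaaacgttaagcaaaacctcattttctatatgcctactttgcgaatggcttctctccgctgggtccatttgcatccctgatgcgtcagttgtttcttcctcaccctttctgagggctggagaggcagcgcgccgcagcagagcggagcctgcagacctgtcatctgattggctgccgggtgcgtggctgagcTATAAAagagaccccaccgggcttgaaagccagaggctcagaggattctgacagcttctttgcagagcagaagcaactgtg
Mfge8: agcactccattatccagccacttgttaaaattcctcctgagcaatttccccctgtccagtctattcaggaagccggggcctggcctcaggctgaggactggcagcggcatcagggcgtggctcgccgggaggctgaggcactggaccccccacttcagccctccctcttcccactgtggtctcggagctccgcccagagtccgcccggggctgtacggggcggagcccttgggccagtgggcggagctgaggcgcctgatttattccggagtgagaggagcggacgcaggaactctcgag
On either strand, the Rgs4 window holds 1 TATAAA and the Mfge8 window none; 13.6% of 32851 promoter windows hold it. Neither window holds the Pax homeodomain palindrome (0.390% of windows), or TGACGTCA, the cAMP response element (1.79% of windows). Their GC content was 53% and 64.3%, against a median of 52.7% over all windows, and they hold 13 and 17 CG pairs, against a median of 7.

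**Figure D1:**
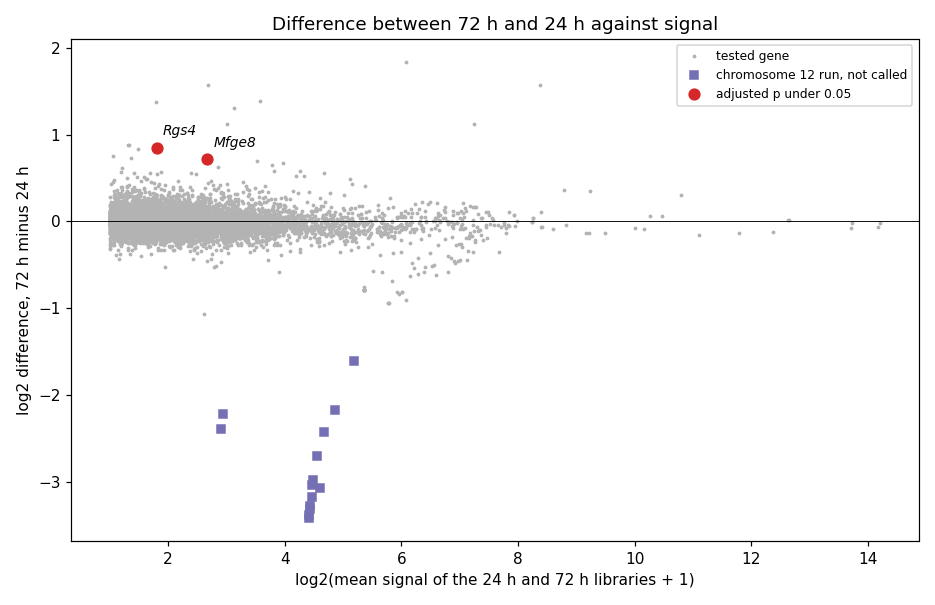
Log2 difference, 72 h minus 24 h, of each tested gene against log2(mean signal of the 24 h and 72 h libraries + 1). Red points are the 2 genes with adjusted p under 0.05, Rgs4 at 0.85 and Mfge8 at 0.72; purple squares are 14 neighbouring genes of chromosome 12 whose differences reached -3.42 without a call.

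The libraries compared were similar in their totals. Summed signal was 169402 and 178548 at 24 h and 175535 and 164715 at 72 h, and 9525 to 9608 genes had a signal of at least 1. The files carry no read counts, so depth is unknown. Replicates differed more at 24 h than at the other times: the median absolute log2 difference between the 2 libraries was 0.09 at 24 h, 0.06 at 72 h and 0.05 at 48 h. Of 10 fibroblast, 10 immune and 8 endothelial markers, 0 reached the filter. Their summed signals in the 4 libraries were 0.383 to 0.574, 0.808 to 0.897 and 0.674 to 0.906, and 2, 2 and 1 of them were listed at 0 in all 8 libraries. In bulk RNA, fewer cells of a type and less RNA per cell cannot be told apart.

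The largest differences were not called. Of 23 genes with a log2 difference of at least 1 in size, 14 lie on chromosome 12 between 69168814 and 69372468 and had differences of -1.61 to -3.42 with limma adjusted p of 0.271 to 0.472. Pole2, which codes for a subunit of DNA polymerase epsilon, lies there with 15.5 and 62.4 at 24 h and 2.50 and 2.15 at 72 h, and Nemf, a ribosome quality control factor, had 23.4 and 63.0 against 3.84 and 3.58. In all 14, both 72 h libraries lay below both 24 h libraries, but the 24 h libraries differed from each other by 1.15 to 2.64 on the log2 scale. Several neighbours had nearly the 24 h values of Pole2: Gm47545 with 15.2 and 62.2, Klhdc1 with 15.7 and 62.8, and Lrr1 with 15.8 and 62.9. Rpl36al stood higher, at 33.0 and 76.4. The 14 are therefore not read as separate changes of each gene, and coverage shared over the region was not tested. In the other 9 genes the groups overlapped. The mitochondrial ribosomal RNA mt-Rnr1 had 1.14 and 3.43 at 24 h, then 1.23 and 25.1 at 72 h, and Lars2, the mitochondrial leucyl-tRNA synthetase gene, 0.794 and 4.69 against 0.837 and 37.3. In both, 72 h replicate 2 was the highest and 72 h replicate 1 was close to 24 h replicate 1. That library was also highest in the other mitochondrial ribosomal RNA, mt-Rnr2, at 1.93 and 3.72, then 2.04 and 20.6. So it was in CT010467.1, at 1.84 and 82.9, then 1.17 and 519, but in Gm29721 it was lowest, at 7.22 and 4.42, then 8.84 and 0.03. These differences rest on 1 library, and their cause was not tested.

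Several genes that had moved from 0 h by the first day had 72 h values farther out, below the threshold of the test. The 24 h libraries enter both the 24 h against 0 h and the 72 h against 24 h differences, so the 2 are given side by side and not read as independent. The imprinted hydrolase-fold gene Mest had 7.39 and 8.02 at 24 h, then 10.8 and 10.4 at 72 h (log2 0.41, SE 0.05, limma adjusted p = 0.117), from 2.98 and 3.0 at 0 h. Of its exonic bases, 23.1% lie in exons of other genes. The convergent neighbour of Mest, Copg2, a COPI coat subunit that shares 17.8% of its exonic bases with other genes, had 5.76 and 6.06 at 24 h, then 7.45 and 7.45 at 72 h (log2 0.29, limma adjusted p = 0.145). Mest and Copg2 overlap in position and the strand setting is unknown, so their values may not be separate measurements. In both genes the difference of the first day was the larger, at log2 1.123 for Mest and 0.87 for Copg2. Enpp2, which codes for autotaxin, the enzyme that makes lysophosphatidic acid, had 1.63 and 1.57 at 24 h, then 2.34 and 2.41 at 72 h, from 0.888 and 0.864 (log2 0.38 after and 0.47 before 24 h, limma adjusted p = 0.117 and 0.0180).

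On the lower side the smallest p belonged to Ddc, which codes for the last enzyme on the way to dopamine and to serotonin. It had 7.26 and 7.29 at 24 h, 7.12 and 6.31 at 48 h, and 4.75 and 4.84 at 72 h, from 13.3 and 12.5 at 0 h. The groups did not overlap, and the log2 difference from 24 to 72 h was -0.51 (SE 0.06, limma adjusted p = 0.111), against -0.75 over the first day. Pex5l, a partner of HCN pacemaker channels, had 4.79 and 4.78 at 24 h, then 3.89 and 3.75 at 72 h (log2 -0.26, limma adjusted p = 0.145). Pcp4, a small calmodulin-binding protein, had 2.26 and 2.35 and then 1.52 and 1.51 (log2 -0.39, limma adjusted p = 0.145), and Igfbp5, which binds insulin-like growth factors, had 6.92 and 5.78 and then 4.21 and 4.43 (log2 -0.46, the same adjusted p). Stmn1, which destabilises microtubules, had 41.6 and 40.9 and then 33.3 and 33.9 (log2 -0.29, limma adjusted p = 0.145), and unlike Ddc its 24 h values lay only slightly below those at 0 h, 44.4 and 43.5.

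**Figure D2:**
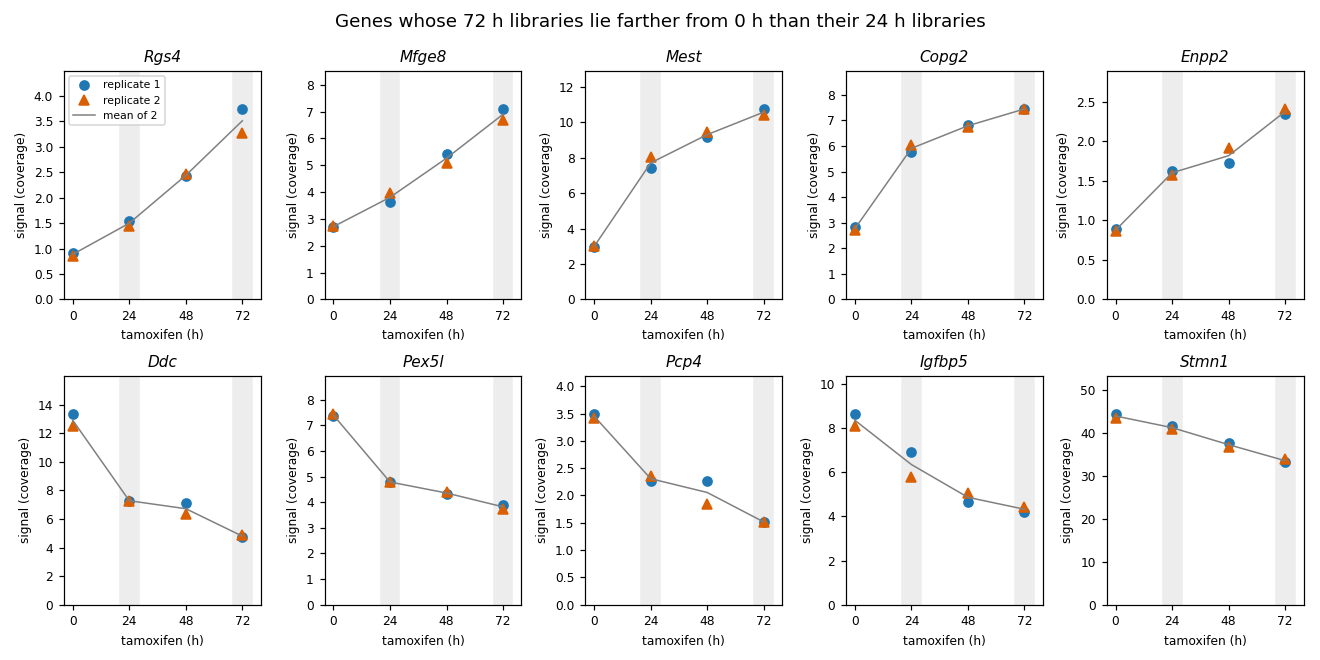
Signal (normalized coverage) in each library against hours of tamoxifen for 10 genes; circles are replicate 1, triangles replicate 2, lines the mean of 2, and grey bands mark the times compared. Rgs4 and Mfge8 are the called genes; Mest at 10.8 and 10.4 and Ddc at 4.75 and 4.84 at 72 h had no call.

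In 5 further genes the difference of 24 h against 0 h was small, between -0.14 and 0.12, and the 72 h libraries lay above both earlier times. Tapbp codes for tapasin, which loads peptides onto MHC class I. It had 2.93 and 2.65 at 0 h, 2.87 and 2.63 at 24 h, 2.97 and 3.11 at 48 h, and 4.25 and 4.15 at 72 h (log2 0.47 against 24 h, limma adjusted p = 0.111); 29.0% of its exonic bases lie in exons of another gene. Dab2ip, a Ras GTPase-activating protein gene, had 1.61 and 1.59 and then 2.36 and 2.43 (log2 0.38), and Rassf10, of the Ras association domain family, 0.664 and 0.803 and then 1.32 and 1.35 (log2 0.43), each with limma adjusted p = 0.111. The chemokine gene Cxcl12 had 3.14 in both 24 h libraries and 4.38 and 4.27 at 72 h, from 3.36 and 3.75 at 0 h (log2 0.36, limma adjusted p = 0.145). Tfrc, the transferrin receptor that takes up iron, had 19.4 and 20.1 at 24 h, then 31.3 and 27.7 at 72 h, from 21.7 and 21.4 at 0 h (log2 0.55, limma adjusted p = 0.111). With quantile normalization Tfrc passed the threshold as an additional gene (log2 0.63, limma adjusted p = 0.0480).

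Among genes with smaller p on the lower side, 3 had both 24 h libraries above, and both 72 h libraries below, those of 0 h. Tra2a, a splicing regulator, had 4.37 and 4.71 at 0 h, 5.19 and 4.92 at 24 h, and 3.99 and 3.75 at 72 h (log2 -0.31, limma adjusted p = 0.145). Cyth2, an exchange factor for Arf GTPases, had 13.8 and 12.9 at 24 h, then 10.9 and 10.0 at 72 h (log2 -0.33, limma adjusted p = 0.145), with 12.3 and 12.5 at 0 h. Fam118a had 3.05 and 2.86 and then 2.29 and 2.0 (log2 -0.33, limma adjusted p = 0.149), from 2.65 and 2.47.

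Of 14 corticotrope markers listed, 7 passed the filter. Of these, 5 (71.4%) had an unadjusted p under 0.05 on the higher side, against 7.28% of all tested genes. None had such a p on the lower side, and limma called 0. The other 2, Nr3c1 and Pitx1, had differences of -0.06 and -0.04 with overlapping groups. Their median difference was 0.25 (0.19 to 0.31 without single libraries), against -0.01 over all tested genes. Against 0 h their medians were -0.25 at 24 h and 0.09 at 72 h. The same 24 h libraries enter the fall from 0 h and the later rise. The fall and the rise are therefore not independent, here and in the lists that follow. Pomc had 634 and 623 at 0 h, 499 and 552 at 24 h, 548 and 539 at 48 h, and 662 and 679 at 72 h. Both 72 h libraries lay above both 24 h libraries, and the log2 difference was 0.35 (SE 0.08, limma adjusted p = 0.180). Pcsk1 had 15.4 and 15.7 at 24 h, then 24.5 and 21.3 at 72 h (log2 0.53, SE 0.08, limma adjusted p = 0.145), with 17.8 and 19.7 at 0 h.

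Tbx19, the T-box factor that Pomc transcription needs, had 16.3 and 19.4 at 24 h, then 22.5 and 23.2 at 72 h (log2 0.34, limma adjusted p = 0.196). Neurod1, its helix-loop-helix partner at the Pomc promoter, had 3.93 and 4.52 and then 4.98 and 5.08 (log2 0.21, limma adjusted p = 0.244). The orphan nuclear receptor gene Nr4a2 had 1.69 and 1.91 at 24 h, then 2.40 and 2.26 at 72 h (log2 0.25, limma adjusted p = 0.180), and all 4 values lay below the 3.98 and 3.80 of 0 h. Tent5a, a cytoplasmic poly(A) polymerase gene, had the same order of times, with 6.90 and 6.57 at 0 h, 2.93 and 3.56 at 24 h and 3.81 and 3.83 at 72 h (log2 0.19 between 24 and 72 h, limma adjusted p = 0.344).

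Melanotrope markers were few above the filter. Of 3 tested, 1 (33.3%) had an unadjusted p under 0.05 on the higher side, against 7.28% of all tested genes. This was Megf11, an engulfment receptor family gene, with 4.44 and 3.86 at 24 h, then 5.40 and 5.12 at 72 h (log2 0.28, limma adjusted p = 0.220). The Pax7 locus, whose values may hold reads of the introduced gene, had 14.1 and 12.6 and then 13.4 and 14.3 (log2 0.05, limma adjusted p = 0.774), with overlapping groups. Pcsk2 lay below the filter at 0.622 and 0.590 at 24 h and 0.845 and 0.822 at 72 h, and Oacyl, an acyltransferase-like gene on the list, at 0.237 and 0.374 and then 0.618 and 0.635. In limma without a filter they had log2 differences of 0.19 and 0.32 and adjusted p = 0.381 and 0.352. Every library listed Drd2, through which dopamine restrains melanotropes, at 0.

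Of the secretory granule and exocytosis genes, 18 of 23 tested members (78.3%) had a positive difference, against 47.2% of all tested genes. At an unadjusted p under 0.05 on the higher side were 10 (43.5%, against 7.28% of all tested genes), and limma called 0. The 1 gene on the lower side at that p was Sytl4, a granule-docking Rab effector named after its value was seen (log2 -0.17, SE 0.06). The list's median was 0.06 for 72 h against 24 h (0.20 among genes with a mean of at least 5, 0.15 without 24 h replicate 2, 0.10 without 72 h replicate 1) and -0.14 for 24 h against 0 h. Summed over the 26 listed genes, signal was 518 and 512 at 0 h, 426 and 445 at 24 h and 462 and 471 at 72 h, so the 72 h sums lay between the others. Syt7, a calcium sensor of granule fusion, had 6.29 and 6.74 at 24 h, then 7.71 and 8.32 at 72 h (log2 0.26, limma adjusted p = 0.180), with 8.06 and 7.65 at 0 h. Chgb, the granule protein secretogranin I, was at 61.8 and 65.8 at 24 h and 64.7 and 68.2 at 72 h, overlapping, with 87.7 and 87.3 at 0 h (log2 0.06 from 24 to 72 h, limma adjusted p = 0.705). Rab27a, a GTPase that docks secretory vesicles, had 5.70 and 7.20 and then 7.32 and 7.97 (log2 0.22, limma adjusted p = 0.380).

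COPII and COPI coat genes, which carry cargo between endoplasmic reticulum and Golgi, had a median of 0.08 (0.13 without 72 h replicate 2). At an unadjusted p under 0.05 were 7 of 21 (33.3%), all on the higher side, against 7.28% of all tested genes, and limma called 0. Mia3, which codes for TANGO1, the export receptor for large cargo such as collagen, had 6.73 and 6.55 at 0 h, 4.95 and 5.02 at 24 h, and 6.01 and 6.11 at 72 h (log2 0.24 after 24 h, limma adjusted p = 0.162). Lysosome genes had a median of 0.09, with 5 of 25 (20%) at an unadjusted p under 0.05 on the higher side, against 7.28% of all tested genes. Gaa, the lysosomal glucosidase that breaks down glycogen, had 8.75 and 8.67 at 24 h, then 11.3 and 12.03 at 72 h (log2 0.38, limma adjusted p = 0.196), and 12.8 and 10.5 at 0 h. Gla, another lysosomal glycosidase, had 1.22 and 1.26 and then 1.54 and 1.58 (log2 0.19, limma adjusted p = 0.196).

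**Figure D3:**
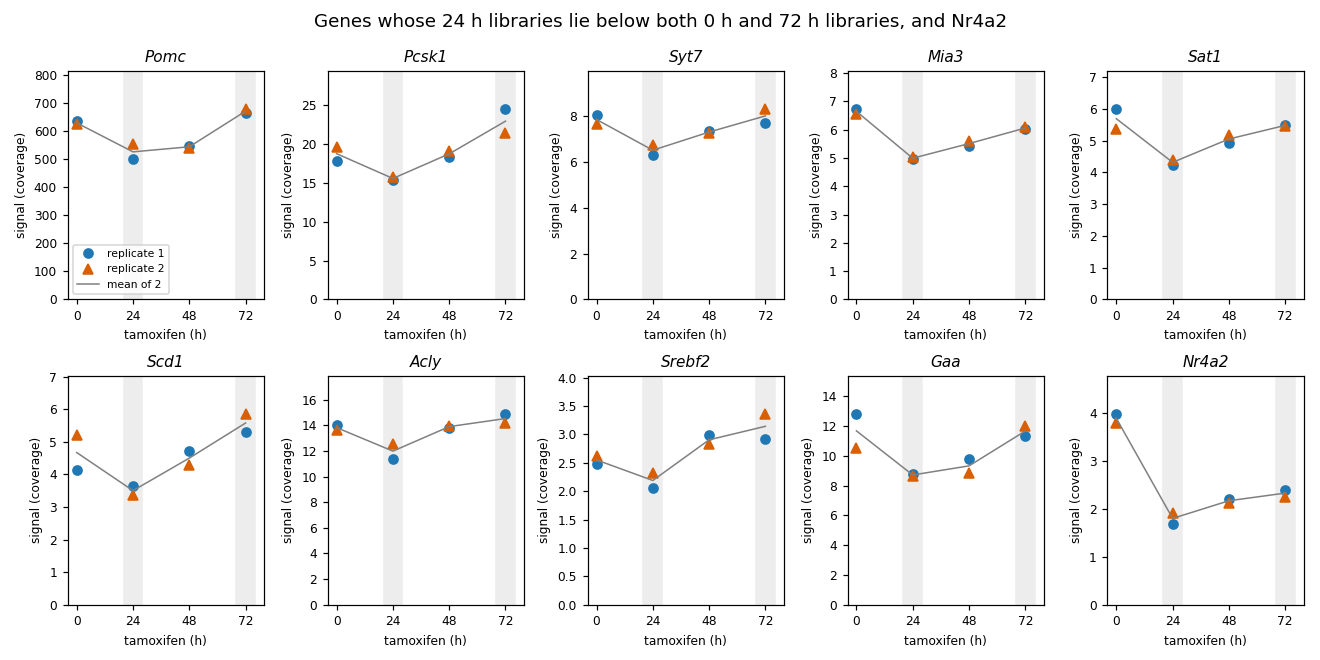
Signal (normalized coverage) in each library against hours of tamoxifen for 10 genes without a call; circles are replicate 1, triangles replicate 2, lines the mean of 2, and grey bands mark the times compared. In the first 9 both 24 h libraries lay below both the 0 h and the 72 h libraries, as in Pomc at 499 and 552. Nr4a2 stayed below its 0 h values at 72 h. The same 24 h libraries enter the fall and the rise, so these are not independent.

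Lipid synthesis genes had the highest share of small p-values among the lists with over 10 tested members. Of 23 cholesterol synthesis and SREBP genes, 21 had a positive difference and 14 (60.9%) an unadjusted p under 0.05, all on the higher side, against 7.28% of all tested genes; limma called 0. The median was 0.17, between 0.13 and 0.25 without single libraries, and the medians against 0 h were -0.13 at 24 h and 0.06 at 72 h. Summed signal of the list was 82.7 and 95.8 at 24 h and 106 and 109 at 72 h, with 101 and 98.0 at 0 h, and it was 108 and 103 at 48 h. Srebf2, the transcription factor that switches on this pathway when sterols are low, had 2.06 and 2.32 at 24 h, then 2.93 and 3.36 at 72 h (log2 0.38, SE 0.07, limma adjusted p = 0.145). Dhcr7, the last enzyme of one branch, had 4.76 and 5.97 and then 7.18 and 7.80 (log2 0.42, limma adjusted p = 0.180).

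Of 11 fatty acid synthesis genes, all had a positive difference, against 47.2% of all tested genes, with a median of 0.19. On the higher side 8 (72.7%) had an unadjusted p under 0.05, against 7.28% of all tested genes, and limma called 0. Scd1, the desaturase that makes oleate, had 3.65 and 3.36 at 24 h, then 5.31 and 5.85 at 72 h, from 4.13 and 5.21 at 0 h (log2 0.55, SE 0.10, limma adjusted p = 0.145). Acly, which makes cytosolic acetyl-CoA from citrate, had 11.4 and 12.6 and then 14.9 and 14.2 (log2 0.26, limma adjusted p = 0.196). Fasn, the fatty acid synthase itself, had a difference of 0.01 (SE 0.07), so the members were not alike.

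The sterol regulatory element was searched as TCACNCCAC on both strands in the RefSeq promoter windows of the cholesterol list, of whose 27 genes 19 matched. Only Hmgcs1, the first committed synthase of the mevalonate pathway, held it, against 1.24% of all windows; it is shown as the one match, in capitals, in chr13:119690101-119690400, plus strand.
Hmgcs1: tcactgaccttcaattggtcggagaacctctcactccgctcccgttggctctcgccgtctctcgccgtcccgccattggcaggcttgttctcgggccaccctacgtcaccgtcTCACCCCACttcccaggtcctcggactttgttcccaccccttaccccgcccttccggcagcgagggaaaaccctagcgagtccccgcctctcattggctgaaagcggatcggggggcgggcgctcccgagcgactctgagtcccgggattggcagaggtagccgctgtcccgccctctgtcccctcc
Hmgcs1 had a difference of 0.15 (SE 0.07, limma adjusted p = 0.441), with overlapping groups.

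**Figure D4:**
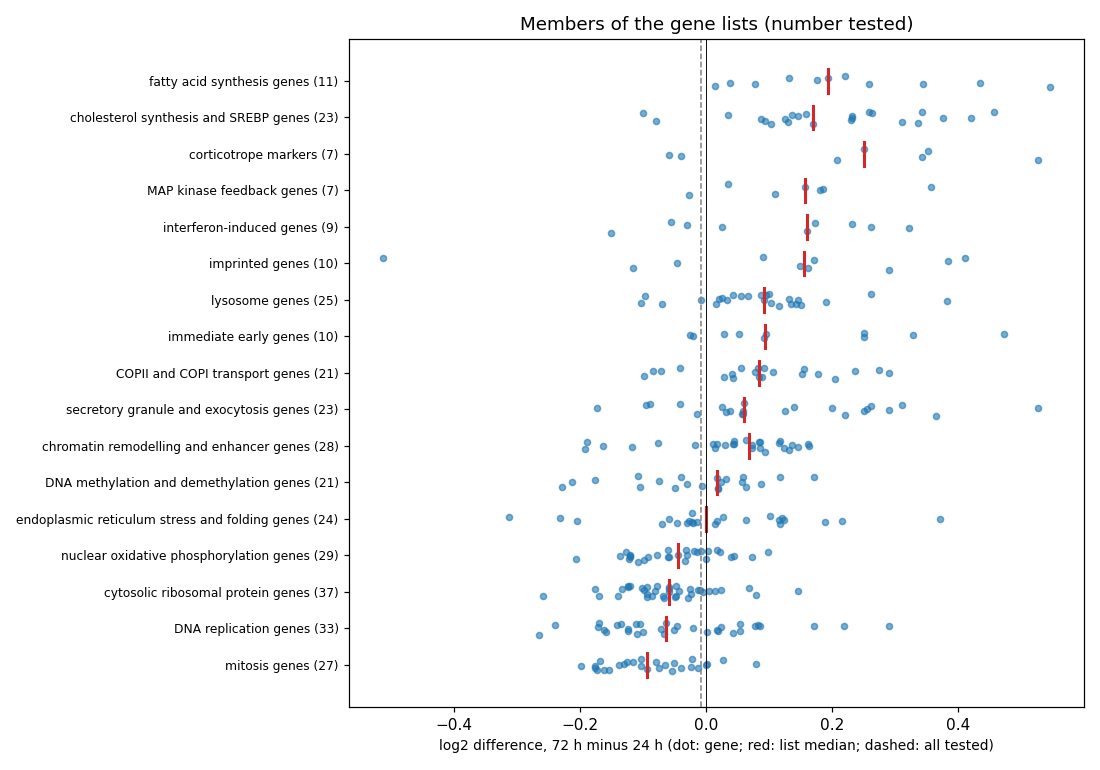
Log2 difference, 72 h minus 24 h, of every tested member of 17 gene lists (number tested in brackets); dots are genes, red bars list medians, and the dashed line the median of all tested genes at -0.01. Medians ran from -0.09 for mitosis genes to 0.19 for fatty acid synthesis genes and 0.25 for corticotrope markers. No member was called.

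Signalling genes with small p-values lay on the higher side. Of 10 immediate early genes 4 (40%), and of 7 MAP kinase feedback genes 4 (57.1%), had an unadjusted p under 0.05 on the higher side. The share of all tested genes was 7.28%. None had such a p on the lower side, the medians were 0.09 and 0.16, and limma called 0. The immediate early median was 0.03 without 24 h replicate 1 and 0.16 without 24 h replicate 2, and the MAP kinase feedback median 0.08 and 0.21. Ier3, an early response gene of stress and growth factor signals, had 0.642 and 0.885 at 24 h, then 1.46 and 1.43 at 72 h (log2 0.47, limma adjusted p = 0.145). Dusp14, a phosphatase that acts on MAP kinases, had 1.41 and 1.57 and then 2.27 and 2.10 (log2 0.36, limma adjusted p = 0.145), and the ETS factor gene Etv5 0.855 and 0.913 and then 1.15 and 1.13 (log2 0.19, limma adjusted p = 0.199). Pde4b, which breaks down cAMP, had 2.01 and 2.09 and then 2.98 and 2.61 (log2 0.31, limma adjusted p = 0.145), among 13 cAMP genes with a median of 0.11.

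Of 11 glucocorticoid response genes, Nfkbia and Tsc22d3 had an unadjusted p under 0.05 on the higher side (18.2%, against 7.28% of all tested genes). On the lower side it was Ddit4 (9.09%, against 6.33%), an inhibitor of mTOR signalling named after its value was seen (log2 -0.22, SE 0.05). The list's median was 0.04, but -0.22 among genes with a mean of at least 5 and 0.11 without 72 h replicate 2. Nfkbia, the inhibitor that holds NF-kB in the cytoplasm, had 1.80 and 2.32 at 24 h, then 3.11 and 3.0 at 72 h (log2 0.41, limma adjusted p = 0.145), and Tsc22d3, which codes for GILZ, 3.60 and 3.91 and then 4.96 and 4.71 (log2 0.29, limma adjusted p = 0.148). Interferon-induced genes had a median of 0.16 over 9 tested, which became 0.02 when 24 h replicate 2 was left out, 0.04 when 72 h replicate 1 was, and 0.21 when 24 h replicate 1 was. Irf1, an interferon response factor gene, had 2.59 and 2.62 and then 3.60 and 3.40 (log2 0.32, limma adjusted p = 0.148), and the MHC class I gene H2-K1, whose reads may be split with its paralogs, 14.0 and 14.8 and then 18.2 and 16.8 (log2 0.26, limma adjusted p = 0.183). The 5 tested estrogen response genes had a median of 0.10; Esr1, where reads of the receptor part of the fusion could fall, had 15.4 and 16.3 and then 18.1 and 17.98 (log2 0.18, limma adjusted p = 0.246).

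Lists of proliferation and protein synthesis genes had medians slightly below 0, and limma called 0 of their members; 52.8% of all tested genes had a negative difference. Of 27 mitosis genes 23 were negative, with a median of -0.09 (-0.16 without 24 h replicate 2, -0.05 without 24 h replicate 1) and 2 at an unadjusted p under 0.05 (7.41%, against 6.33% of all tested genes on that side). The mitotic kinase genes Plk1, at 4.65 and 4.19 and then 3.95 and 3.79, and Aurka, at 5.44 and 4.91 and then 4.83 and 4.12, had differences of -0.15 and -0.18 (limma adjusted p = 0.327 and 0.365). Of 33 DNA replication genes 20 were negative, a share near that of all tested genes, with a median of -0.06 that was -0.04 without 72 h replicate 1 and -0.0043 without 24 h replicate 1. Cdc6, which loads the replicative helicase, had 2.08 and 2.31 and then 1.79 and 1.63 (log2 -0.24, limma adjusted p = 0.199), and the cyclin gene Ccne2 8.06 and 7.37 and then 6.64 and 5.88 (log2 -0.27, limma adjusted p = 0.207). Of 37 cytosolic ribosomal protein genes 31 were negative, with a median of -0.06 that ranged from -0.12 without 24 h replicate 2 to -0.01 without 24 h replicate 1. Nuclear oxidative phosphorylation genes had a median of -0.04, which was 0.03 without 24 h replicate 1 and -0.13 without 24 h replicate 2.

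DNA methylation and demethylation genes showed no common direction, with 11 of 21 positive, a median of 0.02 (-0.0086 without 72 h replicate 2) and 0 called by limma. Among the members with an unadjusted p under 0.05 were the de novo methyltransferase gene Dnmt3a, at 1.24 and 1.25 at 24 h and 1.56 and 1.5 at 72 h (log2 0.17, limma adjusted p = 0.236), and Ogt, the O-GlcNAc transferase that binds TET enzymes, at 1.95 and 2.13 and then 1.56 and 1.68 (log2 -0.21, limma adjusted p = 0.216). Tet1 and Tet2 lay below the filter, with adjusted p = 0.762 and 1 in limma without it. Chromatin remodelling and enhancer genes had 22 of 28 positive (78.6%, against 47.2% of all tested genes). At an unadjusted p under 0.05 were 2 on the higher side (7.14%, against 7.28% of all tested genes). On the lower side it was 1, Chd9 at -0.19 (3.57%, against 6.33%), and limma called 0. Their median was 0.07, which was -0.07 among members with a mean of at least 5 and 0.04 without 72 h replicate 2. Ncoa3, a nuclear receptor coactivator, had 1.23 and 1.25 and then 1.43 and 1.58 (log2 0.16, limma adjusted p = 0.246).

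Of 10 imprinted genes, 5 had an unadjusted p under 0.05 on the higher side and 1 on the lower, against 7.28% and 6.33% of all tested genes, with a median of 0.16 and 0 called by limma; Mest, Copg2 and, on the lower side, Ddc are among them. Of 15 polyamine and monoamine genes, 3 (20%) had such a p on the higher side and 3 (20%), Ddc included, on the lower. Their median of -0.03 was -0.07 without 24 h replicate 2 or without 72 h replicate 1 and 0.005 without 72 h replicate 2. Sat1, which begins polyamine breakdown, had 4.23 and 4.39 and then 5.48 and 5.47, from 6.0 and 5.38 at 0 h (log2 0.29, limma adjusted p = 0.176). Of 24 endoplasmic reticulum stress and folding genes 12 were positive and 12 negative. At an unadjusted p under 0.05 were 3 on the higher side (12.5%, against 7.28%) and 2 on the lower (8.33%, against 6.33%). The chaperone gene Hyou1 had 8.28 and 7.58 and then 11.2 and 9.92 (log2 0.37, limma adjusted p = 0.231). Creld2 went the other way, with 1.24 and 1.28 and then 0.971 and 0.948 (log2 -0.20, limma adjusted p = 0.255). Circadian clock genes had 0 of 11 at an unadjusted p under 0.05, and Per1 overlapped between groups at 1.55 and 2.54 and then 2.25 and 3.32. Of 13 mitochondrially encoded genes, 1 had an unadjusted p under 0.05 (7.69%, against 6.33% of all tested genes on the lower side). This was mt-Nd3, a complex I subunit, at 149 and 144 and then 130 and 126 (log2 -0.19, limma adjusted p = 0.266).

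The 0 h and 48 h libraries are no part of the 72 h minus 24 h difference. They do enter the spread behind its p-values. Deviations of same-numbered replicates also correlated at 0.402 between 24 and 48 h, so the 48 h values are not fully separate. Over all 9619 tested genes the median difference of 48 h against 0 h was 0.0047, and 52.6% of them were positive. For the 700 genes with an unadjusted p under 0.05 on the higher side in 72 h against 24 h, the median was 0.04 and 66.3% were positive; for the 609 on the lower side it was -0.03 and 66.5% were negative. Rgs4 and Mfge8 had 0.87 and 0.75. Across genes, which are not independent and share libraries and normalization, the 2 differences correlated at r = 0.256 (n = 9619). On the opposite side of 0 h at 48 h lay 236 of the 700 and 204 of the 609; among the former were Pomc at -0.21 and Mia3 at -0.23.

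**Figure D5:**
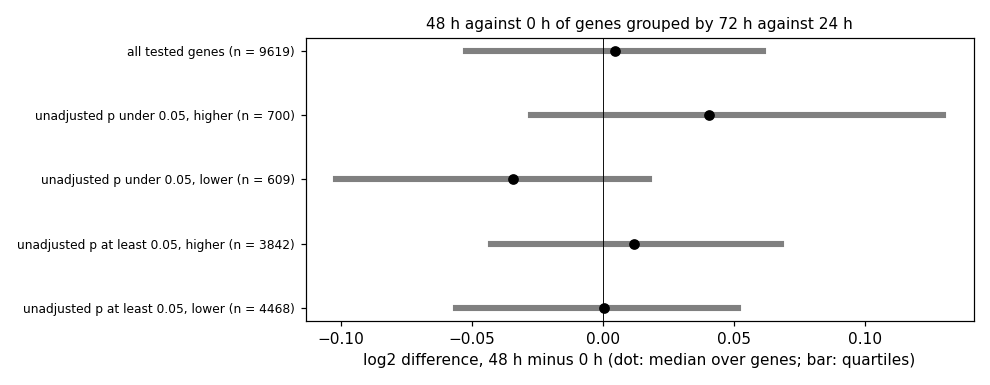
Log2 difference of 48 h against 0 h for genes grouped by their 72 h against 24 h difference; dots are medians over genes and bars the quartiles. The median was 0.04 for the 700 genes with small p on the higher side and -0.03 for the 609 on the lower, against 0.0047 for all tested genes.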

How the data were processed

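RNA-seq of 8 libraries was deposited as 1 table each, in which the authors give a normalized signal (mean coverage) per gene for 55401 genes. The tools, per the submitters' processing notes, were HISAT2 2.2, SAMtools 1.12 and deepTools 3.5, on mm10 (GRCm38). No source used here gives the scaling rule, the strand setting or the read depth. Intervals from counts could therefore not be given. Groups follow the sample titles. Values were taken as log2(signal + 1), with a pseudocount of 1, and genes with a mean under 1 over the 24 h and 72 h libraries were left out. One limma 3.58.1 fit (R 4.3.3) with an intensity trend held all 8 libraries with time as the only term, leaving 4 residual degrees of freedom; p-values were Benjamini-Hochberg adjusted over 9619 genes with a threshold of 0.05. The procedure was tested on simulated data. Alternatives were other pseudocounts, filters, scalings (trimmed mean of M values, quantile), a replicate term and single libraries left out. Named genes were a fixed set of pituitary and early-response genes, all called genes, filled up to 8 in each direction with the uncalled genes of smallest p without overlap, and the 2 members of smallest p in each of 34 lists; genes with over 50% of exonic bases in another gene and unnamed models were passed over. The members and lists were chosen with earlier results of these data known. Gene positions are those of the deposited tables.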

Additional observations from a re-analysis of the deposited data

How the results depend on the processing

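The count of called genes, 2 in limma with 2 higher and 0 lower, depended on the libraries in the fit. It was 0 with only the 4 libraries compared (802 at an unadjusted p under 0.05) and 0 without a filter (3169), 1 with a mean of at least 5, where Rgs4 is not tested, and 1 with a replicate block, where Mfge8 had adjusted p = 0.0578. With 1 library left out at a time, where the lone sample is assumed to vary like the others, it ranged from 0 to 89, from 0 to 68 on the higher and from 0 to 21 on the lower side; the 89 came without 24 h replicate 2. The genes called changed as well as their count. Without 24 h replicate 1 neither Rgs4 nor Mfge8 was called, at differences of 0.88 and 0.67, so what was called there was another gene. Without 72 h replicate 1 Mfge8 was not called, at 0.68. Adjusted p over all alternatives ran from 0.00962 to 0.563 for Rgs4 and from 0.0128 to 0.563 for Mfge8. The difference of Pax7 ranged from -0.029 (without 24 h replicate 2) to 0.13 (without 24 h replicate 1), and that of mt-Nd6 from -0.015 (without 24 h replicate 1) to 0.31 (without 24 h replicate 2). The cause was not tested. Deviations of same-numbered replicates correlated at 0.103 between 24 and 72 h, 0.402 between 24 and 48 h, 0.342 between 0 and 48 h and 0.175 between 0 and 24 h, but at 0.079 between 48 and 72 h and -0.017 between 0 and 72 h. Since not every pair exceeded 0.1 and no label ties the numbers to a shared culture or day, they were not taken as a pairing. A partial pairing cannot be told from these values. Libraries did not all group by time. Across genes, 24 h replicate 2 correlated at 0.995 with 48 h replicate 2 and 0.984 with 24 h replicate 1. For 72 h replicate 1 it was 0.989 with 48 h replicate 1, 0.987 with 24 h replicate 1 and 0.978 with 72 h replicate 2. The 0 h libraries were closest to each other, at 0.994. The cause of this grouping was not tested. Restricting to genes with at most 10% shared exonic bases, chosen after seeing the data, left 2 called. Read depth, which limits low genes, is unknown.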

Other observations

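Histone genes of the chromosome 13 cluster, chosen after their values were seen, had mostly negative differences at 72 h from 24 h. Of 46 tested, 37 were negative, against 52.8% of all tested genes. In 15 both 72 h libraries lay below both 24 h libraries, against 21.6% of all tested genes. In 1 they lay above, against 20.8% of all tested genes, and in 30 the groups overlapped. The median log2 difference was -0.28. At an unadjusted p under 0.05 there were 11 of the 46, all on the lower side, against 6.33% of all tested genes on that side. Limma called 0 (lowest adjusted p = 0.167). Their summed signal was 4434 and 5986 at 24 h and 4740 and 4112 at 72 h, with 4715 and 4839 at 0 h, so the 24 h replicates differed from each other and replicate 1 lay between the 72 h libraries. The linker histone gene H1f4 had 86.9 and 147 at 24 h, then 84.5 and 63.9 at 72 h (log2 -0.61, SE 0.31). A wide gap between the 24 h replicates was also seen in H1f6, at 39.7 and 116, and H3c3, at 69.9 and 154, but not in H1f1, at 66.1 and 61.9. Members of 1 cluster are not independent, so the shares of all tested genes are a scale for these counts and no test. Whether neighbours share coverage was not tested. Replication-dependent histone mRNAs carry no poly(A) tail and are made in S phase; the DNA replication genes had a median of -0.06.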
